A study of Homo sapiens with 12 samples.

Results

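The response of TRPML3-transfected HEK293T cells to serum starvation was examined in 6 of the 12 RNA-seq libraries of the series, chosen by their labels alone, over all 41878 gene rows. HEK293T is an established human embryonic kidney line that takes up plasmids readily. Cells of both groups received 1 µg of a TRPML3 plasmid with the transfection reagent Effectene. They were then kept in 10% fetal bovine serum (TRPML3 fed, 3 libraries) or in 0% serum for 4 h (TRPML3 starved, 3 libraries) before polyadenylated RNA was sequenced. In the other 6 libraries the cells carried 1 µg of a control vector, fed or starved in the same way, and these libraries are used for comparison. The labels describe the samples as biological triplicates. The promoter of the plasmid, the share of cells that took it up and the time between transfection and starvation are not given in the sources used here.

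TRPML3 (gene MCOLN3) is a calcium-permeable cation channel of endosomes, lysosomes and autophagosomes. Serum supplies growth factors that keep the ERK and AKT kinases active. ERK activity induces immediate early transcription factors and then its own inhibitors, the DUSP phosphatases and the Sprouty and SPRED proteins, whereas AKT holds FOXO factors out of the nucleus. When growth factors are withdrawn and mTORC1 activity falls, the ULK1 kinase complex can start autophagy, and the transcription factors TFEB and TFE3 can enter the nucleus and act on lysosomal genes. The comparison asks how these programmes stood after 4 h without serum in cells that overexpress the channel.

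The 6 libraries held 33101540 to 39901013 counts each, and 18030 gene rows passed the filter on low counts. Levels are given in CPM, the counts of a gene scaled to 1e+06 counts of the library. The 9 markers of HEK293T cells summed to 770 to 925 CPM in the fed and 624 to 959 CPM in the starved libraries, and all 9 passed the filter. Haematopoietic markers summed to at most 1.98 CPM, with PTPRC and HBB at 0. Endothelial markers summed to 0.181 to 2.00 CPM, with CDH5 and VWF at 0 and KDR at up to 1.84 CPM. Hepatocyte markers summed to 0.332 to 2.01 CPM, with TTR at 0 and ALB at up to 1.39 CPM. Fibroblast markers summed to 27.4 to 48.1 CPM in the fed and 30.8 to 35.0 CPM in the starved libraries. Among them COL3A1 was at 14.1 to 21.3 CPM and COL1A1 at 0.677 to 21.1 CPM. Transcripts of the mitochondrial genome took 2.15% ± 1.08 (SD, n = 3) of the fed and 2.14% ± 1.47 of the starved counts (exact permutation test, two-sided, p = 1). With 3 libraries a group this test cannot go below 0.1. The share followed the replicate number, at 1.89, 1.22 and 3.33% in fed and 2.07, 0.720 and 3.65% in starved replicates 1, 2 and 3.

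MCOLN3 (ENSG00000055732, GRCh38 chromosome 1, 85018082 to 85048499, minus strand) was examined first, as the transfected gene. Its level was 6485, 5052 and 37033 CPM in fed replicates 1, 2 and 3. In the starved replicates it was 39494, 55243 and 15652 CPM. Fed replicate 3 thus held far more transcript than the other two fed libraries and lay within the range of the starved group. All 6 libraries lay above the vector libraries, which held 9.34 to 18.5 CPM. The mean log2 level was higher by 1.60 in the starved libraries (exact two-sided permutation p = 0.2), so no difference between the groups was detectable at this number of libraries. The dose of the channel's transcript was therefore not balanced between the serum states, and its part in the values below was not tested. A fit with the MCOLN3 level as a covariate is given beside some values. Within each group that level differed mainly in replicate 3, so this fit cannot tell the dose from other differences of replicate 3.

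**Figure D1:**
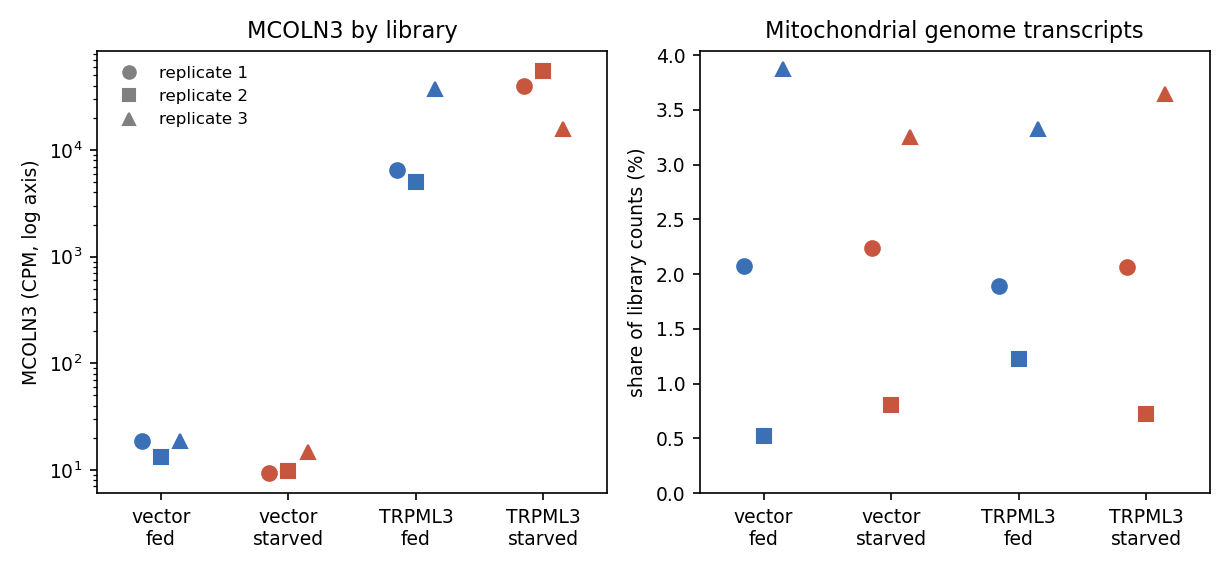
MCOLN3 level in CPM on a log axis (left) and the share of counts from mitochondrial genome transcripts in percent (right), 1 point per library, fed in blue and starved in red, with the symbol giving the replicate number. In the TRPML3 fed group replicates 1 and 2 sit at 6485 and 5052 CPM and replicate 3 at 37033 CPM, inside the range of the starved group.

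Replicate 3 also stood apart over the whole transcriptome. Rank correlation over the 18030 tested genes was 0.952 between fed replicates 1 and 2 and 0.950 between starved replicates 1 and 2. Fed replicate 3 correlated at 0.935 with both other fed libraries, but at 0.946 and 0.943 with starved replicates 1 and 2. Starved replicate 3 correlated at 0.929 and 0.931 with the other starved libraries. The median was 0.935 over the 6 pairs within a group and 0.936 over the 9 pairs between the groups, so libraries of one serum state were no more alike than libraries of different states. These correlations share the genes and are descriptions only. Values without replicate 3 of every group are therefore set beside the gene lists below. That choice rests on values of these same libraries. Fed replicate 3 lay near the starved libraries, so leaving it out could by itself widen the gap between serum states. In the quasi-likelihood test given below, 2913 genes then reached an unadjusted p below 0.05. The count was 585 without replicate 1 and 549 without replicate 2 of every group. Without replicate 3 of every group the log2 fold change of MCOLN3 was 3.17, against 1.19 in the fit of all libraries. The serum states were thus further apart in MCOLN3 level there, and the part of that level in those values was not tested. In addition, 276 of the 10150 rows that reached 10 CPM in a TRPML3 library (2.72%) lay below 0.5 CPM in another library of the same group.

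No gene passed the quasi-likelihood test of edgeR at an adjusted p below 0.05 after starvation (0 of 18030 genes, 0%, smallest adjusted p = 0.349). At an unadjusted p below 0.05 there were 1030 genes (5.71%), 494 of them higher (2.74%) and 536 lower (2.97%) in starved cells. Limma-trend on the authors' normalized values also called 0 genes. The DESeq2 Wald test called 89 of the 16213 genes to which it gave an adjusted p (0.549%), 49 higher (0.302%) and 40 lower (0.247%). Of these 89, 85 had an unadjusted quasi-likelihood p below 0.05, and in 79 the 3 starved libraries did not overlap the 3 fed ones, 44 higher and 35 lower. Over all tested genes, groups that did not overlap after TMM scaling were found for 1002 genes higher (5.56%) and 1020 lower (5.66%). In CPM without that scaling the split was 751 higher (4.17%) and 1207 lower (6.69%). For the genes named next the groups were apart on both scales. The genes described next passed the DESeq2 test only, and each had an adjusted p of 0.349 or more in the quasi-likelihood test. In RNA from whole cultures, fewer cells of a kind and less RNA per cell cannot be told apart.

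The 12 genes named as higher in starved cells were picked by rank and tested for no shared function. SF3B3, a subunit of the U2 snRNP splicing factor SF3b, stood at 124, 77.7 and 129.5 CPM in the fed libraries and at 464, 320.2 and 364 CPM in the starved ones. THOC5, part of the THO complex that couples transcription to mRNA export, stood at 54.0, 43.2 and 39.3 CPM fed and at 123, 111 and 87.6 CPM starved. HEXIM1, which holds the elongation factor P-TEFb inactive, stood at 99.6, 113 and 79.2 CPM fed and at 158, 182 and 228 CPM starved. For each of these 3 genes, every starved library exceeded every fed one. The log2 fold changes were 1.86 ± 0.32 (SE) for SF3B3 with a DESeq2 adjusted p of 0.000208, 1.32 ± 0.23 for THOC5 with 0.000208, and 1.06 ± 0.23 for HEXIM1 with 0.0187. The chromatin regulators CBX6, a Polycomb chromobox protein, and TLE4, a Groucho-family corepressor, showed the same order. CBX6 (GRCh38 chromosome 22, 38861450 to 38872314, minus strand) was at 16.9, 15.4 and 27.3 CPM fed and at 53.8, 79.9 and 80.0 CPM starved, a log2 fold change of 1.90 ± 0.32 with a DESeq2 adjusted p of 2.9e-05. TLE4 was at 18.9, 19.4 and 22.0 CPM fed and at 66.3, 77.5 and 54.0 CPM starved, a log2 fold change of 1.78 ± 0.36 with a DESeq2 adjusted p of 0.00142.

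VPS4A, the ATPase that takes ESCRT-III filaments apart, was at 59.4, 78.8 and 55.5 CPM fed and at 107, 139 and 137 CPM starved, a log2 fold change of 1.07 ± 0.23 with a DESeq2 adjusted p of 0.00851. TBC1D5, a GTPase-activating protein for RAB7 with roles in retromer traffic and autophagy, was at 0.426, 0.934 and 0.514 CPM fed and at 22.1, 11.9 and 15.9 CPM starved. Its log2 fold change of 4.81 ± 1.12 was the largest of the 24 genes named by this rule and carried a DESeq2 adjusted p of 0.000298. Several annotated genes lie inside the TBC1D5 locus on either strand, and because the use of strand in counting is not given in the sources used here, reads of overlapping genes cannot be told apart for it. COL25A1, a membrane-bound collagen known from neurons, was at 5.16, 3.76 and 2.99 CPM fed and at 25.0, 12.0 and 16.2 CPM starved, with a log2 fold change of 2.25 ± 0.36 and a DESeq2 adjusted p of 6.3e-06. The others were FAM133B, the deubiquitinase MINDY4, the axonemal dynein chain DNAH17 and the snoRNA host gene SNHG26, with log2 fold changes of 1.61 ± 0.26, 2.55 ± 0.45, 1.91 ± 0.35 and 1.39 ± 0.26. None of the starved libraries overlapped a fed one for these 4 genes.

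The 12 genes named as lower were picked in the same way. NAB2, a corepressor of EGR factors that is itself induced by them, was at 24.9, 29.2 and 28.8 CPM in the fed and at 11.4, 12.2 and 13.8 CPM in the starved libraries. Replicates were close together in both groups, and the log2 fold change was -1.07 ± 0.23 with a DESeq2 adjusted p of 2.9e-05. RUNX3, a Runt-domain transcription factor, was at 9.30, 11.3 and 4.77 CPM fed and at 0.362, 1.08 and 1.66 CPM starved, a log2 fold change of -2.92 ± 0.54 with a DESeq2 adjusted p of 2.9e-05. IKZF2, the zinc-finger factor Helios, was at 13.9, 9.75 and 5.68 CPM fed and at 3.79, 2.44 and 2.79 CPM starved, a log2 fold change of -1.60 ± 0.35 with a DESeq2 adjusted p of 0.00322. For RUNX3 and IKZF2 fed replicate 3 was the lowest fed library, yet above every starved one. The zinc-finger gene ZNF518A was at 183, 186 and 97.8 CPM fed and at 20.8, 52.9 and 18.8 CPM starved, a log2 fold change of -2.24 ± 0.41 with a DESeq2 adjusted p of 0.000181.

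SLC16A6, a member of the monocarboxylate transporter family, was at 21.1, 13.2 and 5.77 CPM fed and at 1.62, 1.19 and 1.66 CPM starved. Its log2 fold change of -3.05 ± 0.53 was the most negative of the 12 lower genes, with a DESeq2 adjusted p of 1.3e-05. STOX2, a storkhead-box gene, was at 17.4, 8.78 and 18.0 CPM fed and at 3.29, 3.07 and 3.38 CPM starved, a log2 fold change of -2.11 ± 0.34 with a DESeq2 adjusted p of 6.3e-06. The starved values of both genes were tightly grouped, whereas the fed values spread more widely. BTBD8, LIX1L, TIGD7, ZNF441, ZNRD2 and AASDH made up the rest, with log2 fold changes from -2.31 ± 0.58 for AASDH to -1.55 ± 0.35 for TIGD7. With the MCOLN3 level as a covariate, and in all other alternatives run, none of the 24 genes changed sign. The genes were picked for groups that did not overlap in these libraries. Rescaling or leaving out libraries could therefore hardly change a sign, and the stable signs are no further support.

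**Figure D2:**
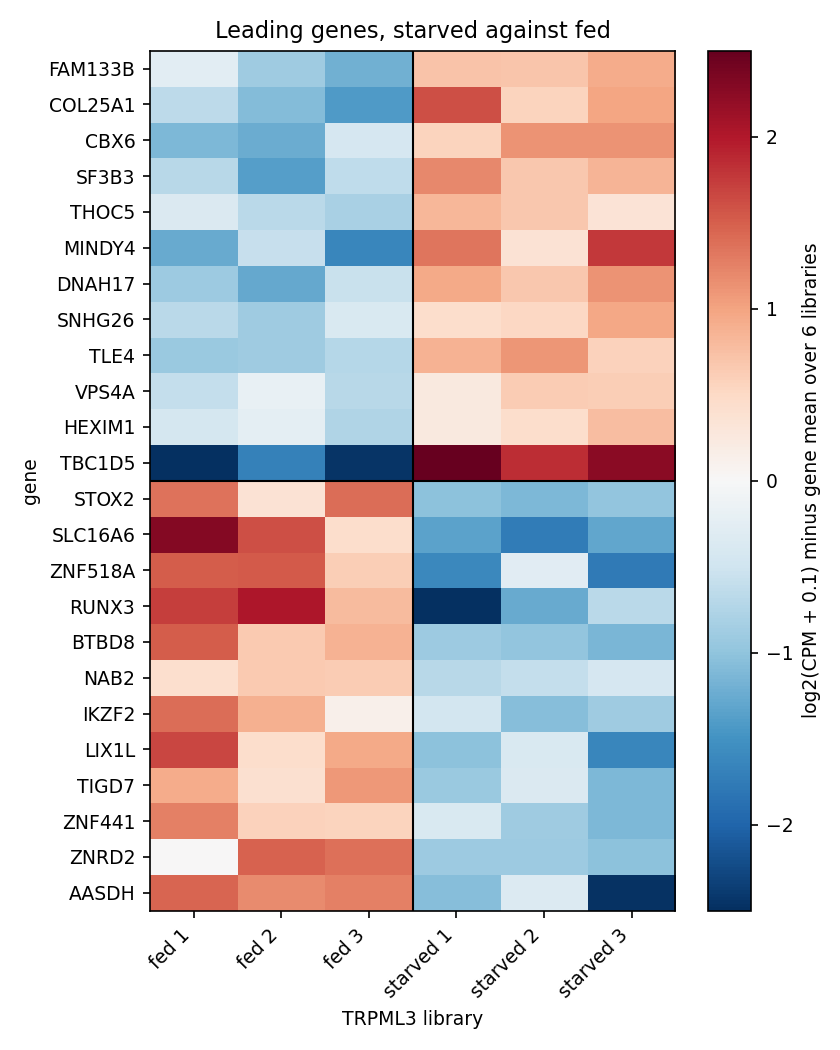
Level of the 24 genes that passed the DESeq2 test only, as log2(CPM + 0.1) minus the gene's mean over the 6 libraries (colour, shown from -2.5 to 2.5), with 1 row per gene and 1 column per TRPML3 library. The 12 upper genes are higher in all 3 starved libraries and the 12 lower genes in all 3 fed libraries, as the rule for naming them required.

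The same starvation in vector cells gave 1 gene in the quasi-likelihood test (0.00555%), RSL1D1, with 800 genes (4.44%) at an unadjusted p below 0.05, and 43 in DESeq2 (0.239%). RSL1D1, a nucleolar protein, had a log2 fold change of 2.32 in vector cells and of 0.16 ± 0.23 in TRPML3 cells. RSL1D1 lost its vector call when any of the vector libraries was left out (RFC5 was then the 1 call without vector fed replicate 1), and also without any of the TRPML3 fed libraries or TRPML3 starved replicate 2. Of the 89 genes that DESeq2 called in TRPML3 cells, 8 were also called in vector cells, against 0.239% of all genes given an adjusted p there. Of these 8, 6 went in the same direction. The test of the difference between the 2 responses called 0 genes in the quasi-likelihood fit (0%, smallest adjusted p = 0.978, 374 genes or 2.07% at an unadjusted p below 0.05) and 27 in DESeq2 (0.15%), of which 12 were among the 89. No gene can thus be called particular to TRPML3 cells in the quasi-likelihood test.

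Of the named genes, 3 passed DESeq2 in vector cells too. SLC16A6 had vector log2 fold change -2.76 ± 0.52 (DESeq2 adjusted p = 0.000188), DNAH17 1.67 ± 0.35 (0.00256) and MINDY4 1.78 ± 0.44 (0.0271), each in the direction seen in TRPML3 cells. For 5 named genes DESeq2 called the difference between plasmids. CBX6 was at 65.1, 55.9 and 87.2 CPM in vector fed and at 45.7, 40.5 and 51.1 CPM in vector starved libraries, so that its vector libraries were lower when starved, without overlap (4.57% of all genes were apart in that direction in vector cells), and its TRPML3 libraries higher (difference of log2 fold changes 2.47 ± 0.44, DESeq2 adjusted p = 0.000564). ZNRD2 showed the opposite arrangement, with a vector log2 fold change of 1.45 ± 0.49 against -2.03 ± 0.50 in TRPML3 cells (DESeq2 adjusted p = 0.00214 for the difference). The remaining 3 were ZNF518A, COL25A1 and STOX2, with vector log2 fold changes of 0.48 ± 0.39, -0.03 ± 0.35 and -0.14 ± 0.32 and DESeq2 adjusted p of 0.00802, 0.0118 and 0.0236 for the difference. In the quasi-likelihood test none of these differences passed. SF3B3 was at 245, 360 and 462 CPM in vector fed and at 381, 236 and 383 CPM in vector starved libraries. VPS4A was at 135, 110 and 155 CPM in vector fed and at 129, 90.6 and 92.3 CPM in vector starved libraries. For both genes the fed TRPML3 libraries lay below all vector libraries, and the starved ones lay near them. DNAH17 did not show this, at 2.58, 3.05 and 3.34 CPM in vector fed libraries. The cause was not tested.

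**Figure D3:**
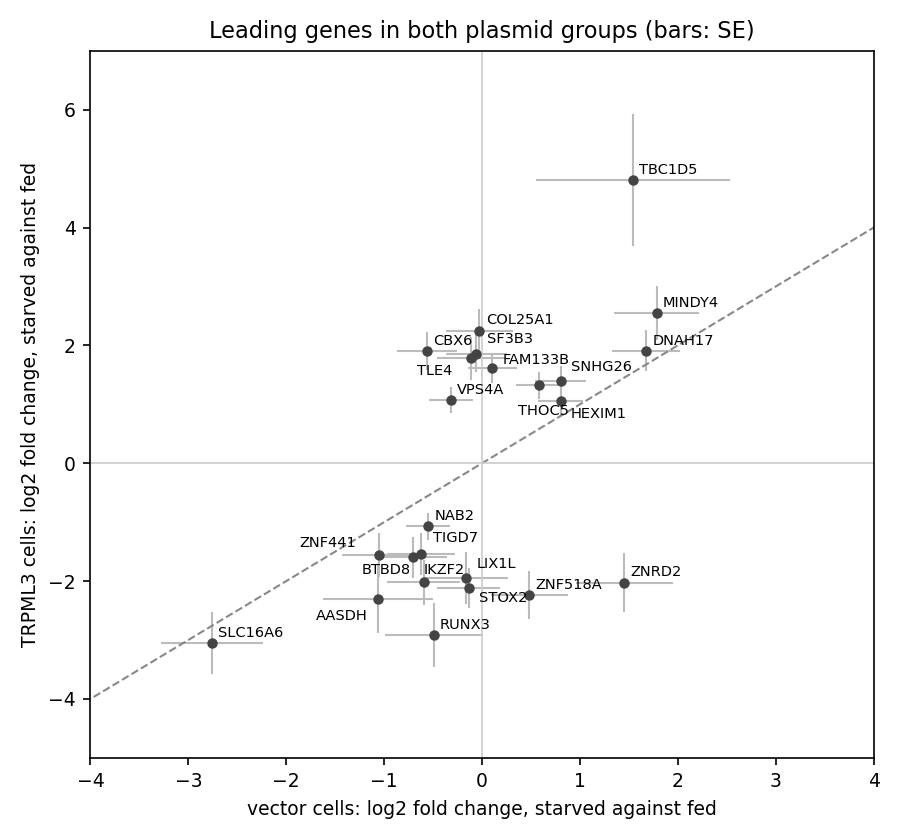
Log2 fold change of starved against fed for the 24 genes in vector cells (horizontal) and in TRPML3 cells (vertical), with bars of 1 SE in each direction and a dashed line of equal change. SLC16A6 and DNAH17 lie near the line, CBX6 and ZNRD2 in quadrants of opposite sign, and the vertical positions were used to choose the genes.

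Genes that report ERK activity were lower in most cases. Of 20 ERK feedback genes tested, 16 were lower and 4 higher in starved TRPML3 cells, against 51.2% of all tested genes with a fold change above 0, and their median log2 fold change was -0.53 against 0.01 for all genes. At an unadjusted quasi-likelihood p below 0.05, 6 were lower and 0 higher (2.97% of all tested genes were lower at this threshold). No member passed the adjusted test. SPRY4, a Sprouty inhibitor of receptor-to-ERK signalling, was the sole member called by DESeq2 (adjusted p = 0.0435). It was at 18.1, 10.2 and 2.18 CPM in the fed and at 0.809, 1.39 and 0.858 CPM in the starved libraries, a log2 fold change of -3.19 ± 0.94. DUSP6, the phosphatase that removes activating phosphates from ERK, was at 6.49, 4.62 and 0.967 CPM fed and at 0.474, 0.483 and 1.07 CPM starved (log2 fold change -2.44 ± 0.77, unadjusted p = 0.00902 in the quasi-likelihood test). Fed replicates 1 and 2 were the high libraries for both genes, and fed replicate 3 lay just above the starved group for SPRY4 and within it for DUSP6.

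SPRED2, a further brake on RAS-to-ERK signalling, was at 79.5, 51.9 and 41.1 CPM fed and at 23.9, 9.95 and 20.6 CPM starved (log2 fold change -1.57 ± 0.51). The ETS factors ETV5 and ETV1, which are transcribed downstream of ERK, had log2 fold changes of -1.36 ± 0.45 and -1.50 ± 0.51. Fed and starved libraries did not overlap for these 3 genes, with fed replicate 3 the lowest fed value in each. Without replicate 3 of every group the list's median was -0.71, and 11 members were lower at an unadjusted p below 0.05, against 8.14% of all genes in that fit, in which 2913 genes (16.1%) reached this threshold and 1 gene (0.00554%) passed the adjusted test. With the MCOLN3 level as a covariate the median of the ERK list was -0.27. In vector cells 18 of the 20 genes were lower (49.4% of all tested genes were above 0 there), with a median of -0.43, and at an unadjusted p below 0.05 there were 4 lower (2.21% of all genes) and 1 higher. None of the 20 passed the unadjusted test of the difference between plasmids.

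The immediate early genes were less uniform. Of 28 tested, 17 were lower and 11 higher, with a median log2 fold change of -0.23. At an unadjusted p below 0.05, 2 were lower and 1 higher, against 2.97% lower and 2.74% higher among all tested genes. The orphan nuclear receptor NR4A3 was at 47.1, 61.6 and 17.0 CPM fed and at 10.8, 11.3 and 13.8 CPM starved (log2 fold change -1.70 ± 0.58). KLF10, a Krüppel-like factor induced by TGF-beta, was at 138, 141 and 75.8 CPM fed and at 45.5, 48.6 and 67.6 CPM starved (log2 fold change -1.03 ± 0.39). Both groups were apart for NR4A3 and KLF10, with replicate 3 the closest library on each side. MYC, the growth-promoting transcription factor, lay the other way, at 133, 70.0 and 107 CPM fed and at 151, 141 and 130.4 CPM starved (log2 fold change 0.53 ± 0.22). In these CPM values fed replicate 1 lay just above starved replicate 3, whereas after TMM scaling the MYC groups did not overlap. NR4A2 and the antiproliferative gene BTG2 had log2 fold changes of -1.32 ± 0.60 and -0.59 ± 0.28.

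The best-known members of this class, FOS, JUN and EGR1, were added after their values were seen. EGR1 was at 487, 326 and 45.5 CPM fed and at 259, 373 and 184 CPM starved, FOS at 52.7, 33.1 and 14.3 CPM fed and at 32.0, 29.4 and 46.2 CPM starved, and JUN at 786, 656 and 254 CPM fed and at 381, 392 and 516 CPM starved. In all 3 genes fed replicate 3 was the lowest of the 6 libraries, and the groups overlapped. Without replicate 3 of every group, the list's median was -0.52 and 11 members were lower at an unadjusted p below 0.05, against 8.14% of all genes in that fit. With the MCOLN3 level as a covariate the median became 0.35, a change of sign. In vector cells 13 of the 28 genes were lower, with a median of 0.02.

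**Figure D4:**
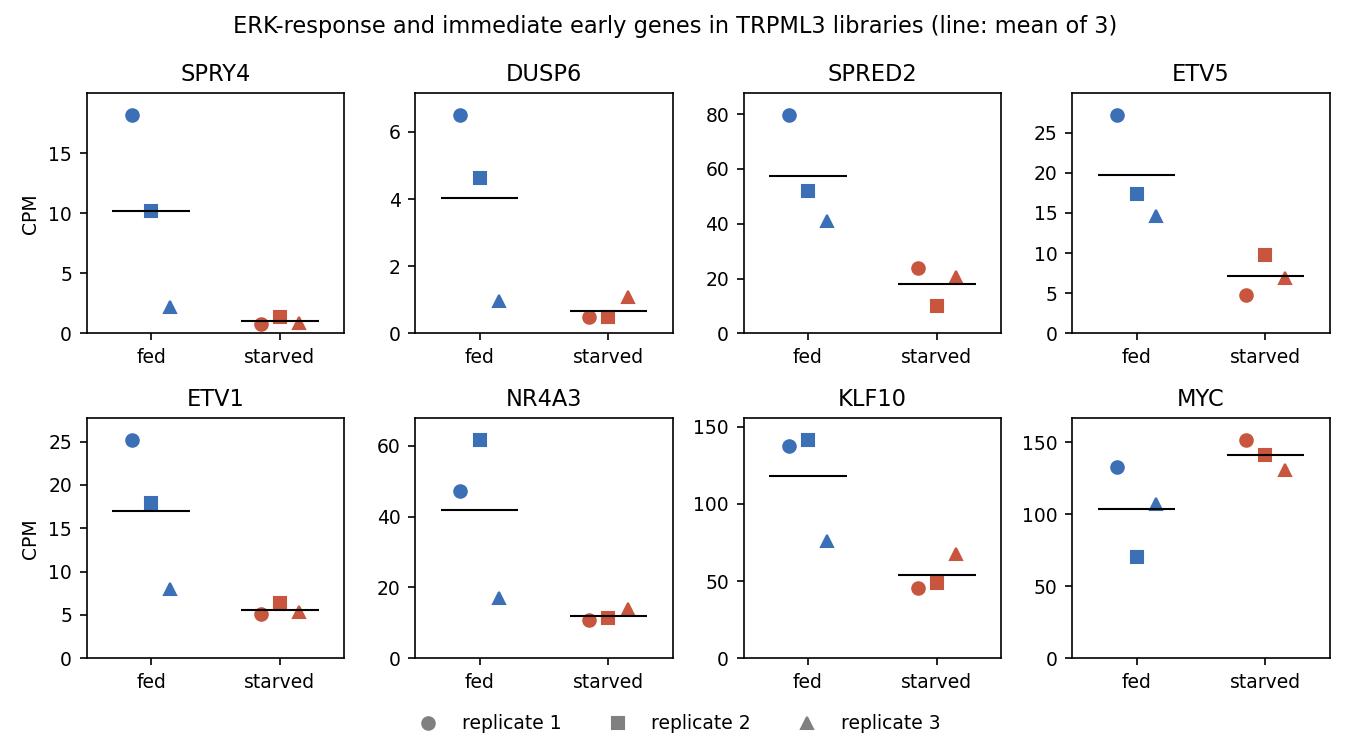
Levels in CPM of 5 ERK feedback genes and 3 immediate early genes in the TRPML3 libraries, 1 point per library, fed in blue and starved in red, with the symbol giving the replicate number and a line at the mean of 3. Fed replicate 3 is the lowest fed library for all genes except MYC and lies close to the starved values for SPRY4, DUSP6 and NR4A3.

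Targets of FOXO and MondoA, among them feedback regulators of glucose uptake and insulin signalling, were mostly lower as well. Of 26 tested, 20 were lower and 6 higher, with a median log2 fold change of -0.42. At an unadjusted p below 0.05, 2 were lower, against 2.97% of all tested genes. ARRDC4 and TXNIP are paralogous arrestin-domain proteins that restrain glucose uptake and are induced by MondoA through E-box elements, and TXNIP is also a FOXO target. Their promoters are shown because, of the windows searched, these 2 held a match. Each runs from 250 bases before to 50 bases after the transcription start (RefSeq, GRCh38.p14, 5′ to 3′ on the strand of the gene), with motif matches in capitals: CACGTG, an E-box core, in ARRDC4 (chr15:97960453-97960752, plus strand) and GTAAACA, a forkhead core, in TXNIP (chr1:145996530-145996829, minus strand).
ARRDC4: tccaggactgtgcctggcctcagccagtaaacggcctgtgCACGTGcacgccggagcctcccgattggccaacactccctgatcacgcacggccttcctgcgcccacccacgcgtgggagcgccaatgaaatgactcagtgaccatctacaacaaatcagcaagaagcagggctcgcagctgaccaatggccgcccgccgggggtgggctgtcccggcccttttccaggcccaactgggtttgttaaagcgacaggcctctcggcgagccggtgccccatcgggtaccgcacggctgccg
TXNIP: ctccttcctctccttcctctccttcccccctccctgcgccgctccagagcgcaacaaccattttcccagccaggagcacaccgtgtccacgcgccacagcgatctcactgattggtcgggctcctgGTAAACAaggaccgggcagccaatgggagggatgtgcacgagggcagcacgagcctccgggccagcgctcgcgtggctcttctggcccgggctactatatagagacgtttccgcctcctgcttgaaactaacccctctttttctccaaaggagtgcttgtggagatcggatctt
The match began 210 bases before the start in ARRDC4 and 124 bases before it in TXNIP. Both strands were searched, also for TGACGTCA and the CArG box, which neither window held. Only exact matches of CACGTG were searched. Its absence from the TXNIP window therefore does not show that the window lacks other E-box elements. The windows of PDK4, FOXO3, NR4A3 and BTG2 and a second start of TXNIP were searched in the same way and held no match. The 2 windows shown are thus the ones with a match. Of all 35116 RefSeq promoter windows of this length, 7.26% held CACGTG and 3.42% held GTAAACA. Of the 24 list genes with a promoter in the table, CACGTG was in 4 (ARRDC4, BNIP3, CCNG2 and CITED2) and GTAAACA in 5 (BCL2L11, FOXO4, PIK3IP1, TXNIP and YPEL3). A gene counted here if any of its windows matched, so these counts are not on the scale of the shares per window. These matches describe the letters of the windows and show no binding.

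ARRDC4 was at 103, 157 and 87.2 CPM fed and at 51.0, 54.6 and 56.0 CPM starved, without overlap (log2 fold change -1.01 ± 0.28, unadjusted p = 0.00384 in the quasi-likelihood test, DESeq2 adjusted p = 0.0943). TXNIP was at 87.4, 199 and 40.6 CPM fed and at 28.8, 45.3 and 52.1 CPM starved (log2 fold change -1.26 ± 0.57). Its fed replicate 3 lay among the starved values. PDK4, the kinase that shuts off pyruvate dehydrogenase, was at 18.6, 18.9 and 4.83 CPM fed and at 4.85, 5.94 and 4.42 CPM starved (log2 fold change -1.37 ± 0.58), and here too fed replicate 3 lay among the starved libraries. FBXO32, the muscle-atrophy ubiquitin ligase atrogin-1, and FOXO3 itself had log2 fold changes of -0.89 ± 0.44 and -0.43 ± 0.24, with no overlap between groups. Without replicate 3 of every group the median was -0.68 and 15 of the 26 genes were lower at an unadjusted p below 0.05, against 8.14% of all genes in that fit. With the MCOLN3 level as a covariate the median was -0.01. In vector cells 23 of the 26 were lower, with a median of -0.44, and no member passed the unadjusted test of the difference between plasmids.

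Nucleolar ribosome biogenesis genes lay in the other direction. Of 32 tested, 28 were higher and 4 lower in starved cells, with a median log2 fold change of 0.32 and 7 higher at an unadjusted p below 0.05, against 2.74% of all genes. RRP12, a factor for ribosomal subunit maturation and export, was at 66.9, 40.5 and 41.1 CPM fed and at 117, 117 and 78.4 CPM starved (log2 fold change 1.16 ± 0.29, unadjusted p = 0.00237 in the quasi-likelihood test, DESeq2 adjusted p = 0.0695). POLR1C, a subunit shared by RNA polymerases I and III, was at 74.1, 59.4 and 77.8 CPM fed and at 94.9, 119 and 133 CPM starved (log2 fold change 0.79 ± 0.27). Starved and fed libraries did not overlap for either gene. NOP56, a core protein of C/D box snoRNPs, nucleolin (NCL) and BOP1 had log2 fold changes of 0.66 ± 0.24, 0.61 ± 0.26 and 0.52 ± 0.22. The list was low in fed replicates 1 and 2 and as high in fed replicate 3 as in the starved libraries. Without replicate 3 of every group the median was 0.76 and 17 genes were higher at an unadjusted p below 0.05, against 8% of all genes. Over the alternatives run the median ranged from 0.18 to 0.76, so this setting gave the highest value. Leaving out TRPML3 fed replicate 3 alone gave a median of 0.63, and with the MCOLN3 level as a covariate it was 0.18. In vector cells 28 of the 32 were also higher, with a median of 0.28, and GAR1 and RSL1D1 passed the unadjusted test of the difference between plasmids (2 of 32, against 2.07% of all genes).

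Of 23 targets of the YAP-TEAD pathway, 16 were lower and 7 higher (median -0.25, or -0.40 without replicate 3 of every group and -0.11 with the MCOLN3 level as a covariate). At an unadjusted p below 0.05, 4 were lower and 1 higher, against 2.97% lower and 2.74% higher among all tested genes. F3, the gene of tissue factor, was at 4.31, 4.30 and 3.05 CPM fed and at 2.12, 1.45 and 1.48 CPM starved (log2 fold change -1.12 ± 0.44), whereas FJX1 was higher (1.27 ± 0.44), both without overlap. CCN2, a matricellular YAP target, was at 30.2, 0 and 4.14 CPM fed and at 0 in all 3 starved libraries. DESeq2 called it, but its groups overlapped because fed replicate 2 was also at 0, and no fold is given. The receptor tyrosine kinase AXL was called by DESeq2 as well (adjusted p = 0.0427) at levels of 0.476 to 1.09 CPM fed and 0 to 0.223 CPM starved, and is named after its values were seen. Of 16 BMP and TGF-beta targets, read out through SMAD factors, 11 were lower (median -0.38, or -0.51 without replicate 3 and -0.08 without replicate 2 of every group). SMAD7, the inhibitory SMAD, was at 26.0, 42.5 and 20.4 CPM fed and at 14.5, 13.5 and 12.1 CPM starved (log2 fold change -1.06 ± 0.35), while LTBP2, which encodes a latent TGF-beta binding protein, was higher (1.20 ± 0.34), both without overlap. With the MCOLN3 level as a covariate the SMAD median became 0.08. SRF and MRTF cytoskeletal targets had a median of -0.08 with all libraries and without replicate 3, with 9 of 22 higher and none at an unadjusted p below 0.05.

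The labels give the induction of autophagy as the purpose of the starvation, and the medians of autophagy and lysosome genes were close to the median of all genes. Of 45 autophagy genes 25 were higher and 20 lower (median 0.04, or 0.06 without replicate 3). RB1CC1, a scaffold of the ULK1 complex, was the only autophagy gene at an unadjusted p below 0.05 and was lower, at 250.1, 157 and 140.3 CPM fed and 114, 77.2 and 42.0 CPM starved (log2 fold change -1.15 ± 0.35). Its fed and starved libraries did not overlap, and 2.97% of all tested genes were lower at that threshold. ATG13, its partner in the ULK1 complex, had a log2 fold change of 0.67 ± 0.30 with overlapping groups. Of 43 lysosomal genes 28 were higher (median 0.06, or 0.13 without replicate 3). At an unadjusted p below 0.05, 1 of the 43 was higher, where 2.74% of all tested genes were. This was the beta-mannosidase gene MANBA, at 8.87, 9.40 and 10.0 CPM fed and at 23.8, 13.0 and 41.4 CPM starved (log2 fold change 1.55 ± 0.45). Of 16 V-ATPase subunits, which acidify the lysosome, 10 were higher (median 0.19, or 0.30 without replicate 3), led by ATP6V0B at 33.0, 31.1 and 31.7 CPM fed and 41.6, 42.6 and 38.9 CPM starved (log2 fold change 0.44 ± 0.17). The proton pump subunit thus differed by little, but without overlap. Of 13 MiT/TFE and folliculin genes 9 were higher (median 0.24, or 0.34 without replicate 3), none at an unadjusted p below 0.05. TFE3 itself was at 47.3, 41.7 and 38.5 CPM fed and at 51.4, 51.8 and 55.6 CPM starved (log2 fold change 0.40 ± 0.23). Among 16 endolysosomal channels, MCOLN3 included, 12 were higher (median 0.12, or 0.19 without replicate 3) and none passed an unadjusted p of 0.05.

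Metabolic and stress lists had medians from -0.12 to 0.11 with all libraries. Of 24 cholesterol synthesis genes 14 were higher and 10 lower (median 0.11, or 0.08 without replicate 3), with MSMO1, a sterol demethylation enzyme, lower at 110.2, 194 and 70.7 CPM fed against 54.0, 68.8 and 58.5 CPM starved (log2 fold change -0.95 ± 0.42). The 12 fatty acid synthesis genes had a median of -0.12, or -0.28 without replicate 3. The 40 ATF4 targets, markers of amino acid stress, had a median of 0.05, or 0.14 without replicate 3. DDIT4, an inhibitor of mTORC1, was at 87.4, 100.3 and 40.0 CPM fed and at 30.5, 41.7 and 38.8 CPM starved (log2 fold change -0.93 ± 0.39), with fed replicate 3 inside the starved range. Of 28 glycolysis and hypoxia genes 18 were lower (median -0.10, or -0.24 without replicate 3). The prolyl hydroxylase P4HA1 was at 100.4, 122 and 154 CPM fed and at 69.3, 50.5 and 12.2 CPM starved (log2 fold change -1.46 ± 0.52), and PFKFB3, which makes an allosteric activator of glycolysis, had a log2 fold change of -0.60 ± 0.23, both without overlap. ER chaperones had a median of -0.05, or -0.13 without replicate 3. Heat shock genes had one of 0.04, which became -0.10 without replicate 3, with the co-chaperone DNAJA1 higher (0.62 ± 0.21).

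Among 30 genes of the G2/M phase 17 were higher, a share close to the 51.2% of all tested genes (median 0.06 with all libraries and without replicate 3). At an unadjusted p below 0.05, 3 were higher and 1 lower, against 2.74% higher and 2.97% lower among all tested genes. CDC20, an activator of the anaphase-promoting complex, was at 119, 132 and 134 CPM fed and at 149.8, 184 and 182 CPM starved (log2 fold change 0.50 ± 0.15), and BIRC5, the gene of survivin, had a log2 fold change of 0.44 ± 0.13. Both genes kept the groups apart. Of 30 G1/S genes 20 were higher (median 0.11, or 0.25 without replicate 3), with a log2 fold change of 0.41 ± 0.15 for the replicative helicase subunit MCM7. UHRF1, a reader of hemimethylated DNA, was at 73.9 and 66.2 CPM in fed replicates 1 and 2, but at 4.95 CPM in fed replicate 3 and at 4.67 to 6.50 CPM in the starved libraries. Of 18 p53 targets 14 were lower (median -0.20, or -0.13 without replicate 3), among them the pro-apoptotic BBC3 at 5.06, 4.83 and 3.44 CPM fed and 2.45, 2.36 and 2.68 CPM starved (log2 fold change -0.74 ± 0.27).

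The series' title names neuronal genes linked to development. Of 49 such genes listed, 36 passed the filter, 16 of them higher and 20 lower, with a median of -0.03, or -0.24 without replicate 3. SOX2, a factor of neural progenitors, was at 11.0, 10.4 and 8.43 CPM fed and at 16.5, 13.9 and 16.0 CPM starved (log2 fold change 0.72 ± 0.25). SOX4 was at 69.7, 109.9 and 7.70 CPM fed and at 157, 177 and 242 CPM starved (log2 fold change 1.75 ± 0.72). These 2 were the list's genes at an unadjusted p below 0.05, where 2.74% of all tested genes were higher. Fed replicate 3 was the lowest library for both. Of 31 calcium handling and calcineurin genes 19 were lower (median -0.04, or -0.10 without replicate 3), led by PPP3CA, the calcineurin catalytic subunit, at 41.2, 23.2 and 87.1 CPM fed and 6.86, 17.1 and 20.5 CPM starved (log2 fold change -1.72 ± 0.75). Interferon-stimulated genes had a median of -0.09, or 0.03 without replicate 3, with none at an unadjusted p below 0.05. No gene of any list passed the adjusted quasi-likelihood test.

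**Figure D5:**
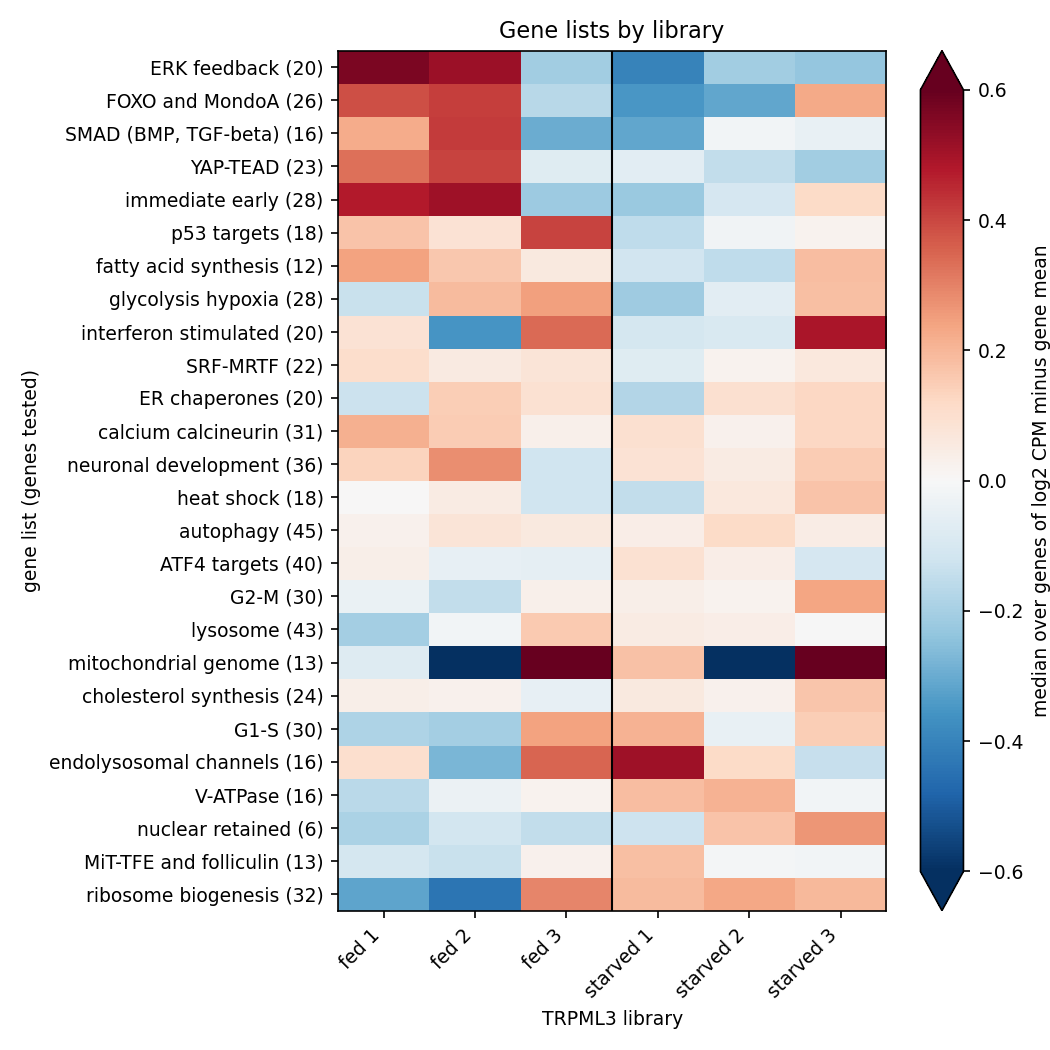
Median over the tested genes of each list of log2 CPM minus the gene's mean over the 6 TRPML3 libraries (colour, shown from -0.6 to 0.6), with 1 row per list and 1 column per library. ERK feedback genes stand at 0.57 and 0.51 in fed replicates 1 and 2 and at -0.21 in fed replicate 3, close to the -0.40 to -0.21 of the starved libraries, and ribosome biogenesis genes show the reverse.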

How the data were processed

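RNA-seq libraries of HEK293T cells were grouped by their sample titles. The authors deposited raw counts per gene (41878 rows) and a normalized signal (23252 rows). Per the submitters' processing notes, FastQC, fastp, HISAT2, StringTie and DESeq2 were used with GRCh38. Their versions, whether counting used strand, which annotation release was used and whether the whole counts are direct or estimated are not given in the sources used here. The normalized signal, as deposited by the authors, was used only in an alternative.

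Counts were tested with edgeR 4.0.16 in R 4.3.3 (TMM, filterByExpr, a robust quasi-likelihood fit over the 12 libraries, with a coefficient for each of the groups, 8 residual degrees of freedom, common biological coefficient of variation 0.527, Benjamini-Hochberg adjustment over 18030 genes at 0.05). Alternatives were DESeq2 1.42.0 (Wald test), limma 3.58.1 (limma-trend on log2 of the deposited signal + 1), other scalings and filters, the MCOLN3 level as a covariate, the replicate number as a block, the 6 libraries alone, and libraries left out. A TMM-scaled MCOLN3 level was added after seeing the data. CPM printed for a library are counts over its total. Fold changes are fitted log2 values with SE, and SDs are over 3 libraries. The detection floor was 3 counts, at most 0.0906 CPM. P-values measure the spread between these samples, described as biological triplicates.

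The genes and lists were chosen with earlier results of these data known, and lists are described without a test. After MCOLN3, the genes named were up to 12 per direction with the smallest quasi-likelihood p among those averaging 5 CPM or more in either group, no overlap and a DESeq2 adjusted p below 0.05. For each list they were up to 5 genes with the smallest p that averaged 1 CPM or more. Positions came from GENCODE 29 (GRCh38), where 93.9% of identifiers were found. Of the 25 genes named by rule, 9 overlapped another gene on the same strand and 13 on the other strand. The count test was also run on simulated counts. These held no rows that switched within a group and no replicate that stood apart, so that run does not cover such features of these data.

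No 2 of the 6 libraries agreed within counting noise (chi-square per degree of freedom at least 108.5 in 15 pairs).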

Additional observations from a re-analysis of the deposited data

How the results depend on the processing

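Starvation in TRPML3 cells called 0 genes in the quasi-likelihood test under every scaling, filter and threshold tried and with the MCOLN3 level as a covariate (943 genes at an unadjusted p below 0.05), and 89 with DESeq2. Leaving out libraries gave 0 to 3 calls: SNX30 without fed replicate 1, WDR3 without fed replicate 3, ZNF670, PANX1 and FRRS1 without starved replicate 1, TAF13 without starved replicate 2, FRRS1 without replicate 1 of every group, and WDR3 without replicate 3 of every group, where 2913 genes reached an unadjusted p below 0.05 against 1030 with all libraries. Vector cells showed a like rise without replicate 3 of every group, to 2611 genes against 800 with all libraries. Without replicate 1 or replicate 2 of every group the count in TRPML3 cells was 585 or 549. Without replicate 3 of both TRPML3 groups 3 genes passed, WDR3, MCOLN3 (adjusted p = 0.0414) and HEATR3. In vector cells DESeq2 called 43, and the count was 0 at an adjusted p below 0.01, with the 6 libraries alone and with the replicate block, 0 to 2 with a library left out, and 3 without replicate 3 of both TRPML3 groups. For the difference DESeq2 called 27, leaving out libraries gave 0 to 3, and removing replicate 3 of both TRPML3 groups gave 1. Over all tested genes, same-numbered fed and starved TRPML3 libraries did not deviate together (r of 0.0048, -0.021 and -0.075 for numbers 1 to 3). The numbers were therefore not taken as pairs in the main fit. The mitochondrial share did follow the number, being lowest in replicate 2 and highest in replicate 3 of every group, vector groups included. With the replicate number as a block, TRPML3 starvation gave 0 calls, a smallest adjusted p of 0.526 and 1197 genes at an unadjusted p below 0.05. Each of the 24 genes beside MCOLN3 passed 0.05 only with DESeq2. None reversed in sign, which the rule for naming them largely fixed in advance. MCOLN3 ranged from 0.02 to 3.17 in log2 fold change. The mitochondrial share differed by -0.0028 percentage points, with a range of -0.754 to 0.710 when a library was left out. Library size alone moved the median of all genes from 0.01 to -0.07. The cause of these shifts was not tested.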

Other observations

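Some gene rows switched between near 0 and high levels within a group, and the genes below were picked after their values were seen. WDR3, a ribosome biogenesis factor, was at 0.175 and 0.374 CPM in fed replicates 1 and 2, at 369.8 CPM in fed replicate 3 and at 356, 189.9 and 196 CPM in the starved libraries. FRRS1 was at 14.9 to 36.1 CPM in the fed libraries and at 44.3, 0.0568 and 0.0268 CPM in the starved ones. SNX30, a sorting nexin, was at 67.3, 0.160 and 0 CPM fed and at 82.3, 69.3 and 92.1 CPM starved. Each of these 3 genes passed the quasi-likelihood test only where 1 or more libraries were left out.

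ABLIM1, an actin-binding LIM protein, was at 0.426, 0.934 and 3.66 CPM fed and at 151, 126 and 142 CPM starved, without overlap (log2 fold change 6.41 ± 1.73 SE, DESeq2 adjusted p = 0.000208, quasi-likelihood adjusted p = 0.812). In vector cells ABLIM1 was at 3.96, 7.31 and 157 CPM fed and at 135, 4.70 and 69.0 CPM starved, so that high and low libraries occurred within each vector group. ERO1A, an oxidase of the endoplasmic reticulum, was at 196, 241 and 4.35 CPM in the fed and at 0.781 to 1.18 CPM in the starved TRPML3 libraries (DESeq2 adjusted p = 0.000237, quasi-likelihood adjusted p = 0.812). In vector cells ERO1A was at 133, 186 and 0.922 CPM fed and at 96.5, 1.72 and 109 CPM starved, again with high and low libraries in each group.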
